A study of Mus musculus with 9 samples.

Results

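In this RNA-seq series, 6 of the 9 mouse hearts had been made ischemic and reperfused, and they are described here as 1 arm against the 3 sham hearts. The 6 hearts were taken by their group labels, MIRI 1 to 3 and GXNI 1 to 3, and no measured value entered the choice. All 9 mice were wild-type males of the C57BL/6J strain, 8 to 10 weeks old. In the I/R arm the left anterior descending coronary artery was tied for 30 min and then released for 24 h, whereas in the sham group the chest was opened and the suture passed but not tied. The 3 MIRI mice received saline and the 3 GXNI mice received Guanxinning injection, a preparation of Danshen and Chuanxiong, at 9 mL/kg through the tail vein within 10 min of the start of ischemia. The study states that every group was given drug or saline by this route, which includes the sham group. The comparison asks which transcripts changed after ischemia and reperfusion whatever the injection was, and which transcripts moved in only some of the 6 hearts.

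When blood returns to ischemic myocardium, cardiomyocytes that survive and the cells around them switch on immediate early genes, which encode transcription factors that need no new protein synthesis to be transcribed. Stretched and injured cardiomyocytes remodel their cytoskeleton, return to transcripts of the fetal heart and release secreted stress factors, while the matrix is opened and rebuilt. Neutrophils and then monocytes enter from the blood, drawn by chemokines and by interleukin-1 signaling.

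Libraries held 17119454 to 22811295 counts assigned to genes, so 3 counts corresponded to 0.132 to 0.175 CPM, counts scaled to the total of the library. Although the labels give the cell type as cardiomyocytes, the RNA was extracted from heart tissue. Counts of the cardiomyocyte genes Myh6 and Tnnt2 lay between 81962 and 306482 in every library, and endothelial Pecam1, fibroblast Pdgfra, macrophage Csf1r and red cell Hba-a1 were also read in all 9, while the T cell gene Cd3e had 0 to 4 counts and the atrial gene Bmp10 0 or 1. In bulk tissue, fewer cells of a type and less RNA per cell cannot be told apart. The I/R hearts were not alike. MIRI 2 and GXNI 1 lay nearest to sham, with 188 and 238 genes at least 1 log2 unit above the highest sham heart. The number was 591 in GXNI 2 and 1239 in MIRI 1, and it reached 1648 and 1803 in MIRI 3 and GXNI 3. Mitochondrial genes took 27.4%, 29.8% and 27.6% of counts in sham 1 to 3, 25.4%, 26.9% and 23.0% in MIRI 1 to 3, and 27.3%, 25.8% and 23.7% in GXNI 1 to 3, and the part of this share in the differences was not tested. Whether MIRI 2 and GXNI 3 carry each other's label was not settled here, and the pooled contrast does not depend on it. Genes that overlap a neighbor or have a close paralog are uncertain, since the strand setting of the counting is not given in the sources used here.

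**Figure D1:**
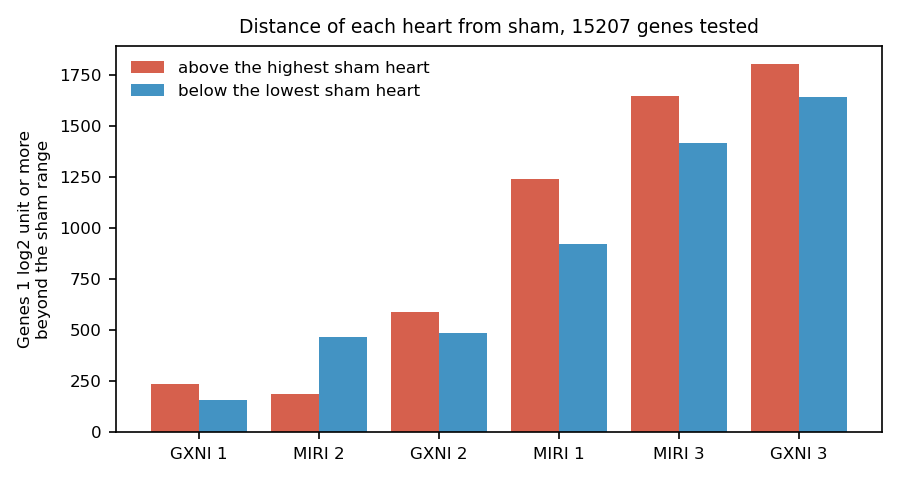
Number of genes at least 1 log2 unit above the highest sham heart (red bars) or below the lowest sham heart (blue bars) in each I/R heart, out of 15207 genes tested. Hearts are ordered by their distance from the sham mean, and the bars above sham run from 188 in MIRI 2 to 1803 in GXNI 3.

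Of 15207 genes tested, 840 (5.52%) were called higher and 434 (2.85%) lower after I/R by the thresholds of the study, a 1.5-fold difference with p no larger than 0.01 before adjustment, applied here to edgeR's quasi-likelihood test. All 1274 of these calls stayed at or under 0.1 after Benjamini-Hochberg adjustment over all genes in edgeR's quasi-likelihood test. At an adjusted p of at most 0.05 the called genes were 4 higher (0.0263%), Snhg11, Slc25a25, Fbn1 and Nr4a1, and 5 lower (0.0329%), which included Mylk4, Scube2 and Tnik. Counted before the fold threshold, the genes at this adjusted p were also 9. That number became 0 without sham 2, sham 3, MIRI 3 or GXNI 3, 1 without MIRI 1 and 2 without GXNI 2. It rose to 1795 without MIRI 2 and 2628 without GXNI 1, so an adjusted p at this level depended on the libraries used. A change is given below as the log2 fold change of I/R against sham with its standard error. The lowest of the 6 hearts lay above the highest sham heart for 636 of the 840 genes called higher (4.18% of genes tested), and the highest of the 6 lay below the lowest sham heart for 395 of the 434 called lower (2.6%). Called or not, 7.96% of the genes tested were above and 8.89% below every sham heart in all 6. MIRI 2 or GXNI 1 was the heart nearest to sham for 555 of the 636 genes (87.3%) and for 322 of the 395 (81.5%). Over the 636 genes the median distance from the sham mean was 1.29, 0.67 and 1.502 log2 units in MIRI 1 to 3 and 0.56, 0.9981 and 1.53 in GXNI 1 to 3. The same genes thus stood out by different amounts. Leaving out a sham heart lowered the count called higher to between 254 and 342 and the count called lower to between 209 and 253, while leaving out MIRI 2 raised them to 1466 and 722, and leaving out GXNI 1 to 1440 and 858. Without MIRI 1 they were 515 and 261, and the count called higher was 531 without MIRI 3. Of 186 called genes that were named by rule or chosen for description, 79 kept their call with any single library left out.

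The widest empty space between sham and I/R belonged to Sprr1a (chromosome 3, 92483952 to 92485895, minus strand), a cornified envelope protein gene known to be induced in stressed cardiomyocytes. Sprr1a was at 0.483, 0.298 and 0.642 CPM in the sham hearts, and the I/R hearts ran from 5.76 in GXNI 1 through a median of 17.0 to 70.4 in GXNI 3. Every I/R heart thus exceeded the highest sham heart by at least 3.12 log2 units, and the change was 6.005 ± 1.18. Thbs1 (chromosome 2, 118111876 to 118127133), which encodes the matricellular protein thrombospondin-1, was at 7.09, 2.93 and 6.53 CPM in sham and ran from 20.8 in GXNI 1 through a median of 353 to 1008 in MIRI 3. No I/R heart overlapped the sham hearts, although the 6 hearts themselves were spread over 5.60 log2 units. Nr4a1, an orphan nuclear receptor induced by many stimuli, was at 8.92, 14.6 and 10.2 CPM in sham and between 43.6 (GXNI 2) and 118 (GXNI 1) with a median of 67.6 after I/R, a change of 2.71 ± 0.32 (adjusted p = 0.022, edgeR's quasi-likelihood test). Here GXNI 1, a heart otherwise near sham, held the highest value. Prg4, which encodes the lubricating glycoprotein lubricin, was at 28.2, 18.1 and 22.1 CPM in sham and ran from 80.0 in GXNI 1 through 134 to 265 in GXNI 3. Among the 10 genes with the widest gap, some rested on few reads in sham. Egr2 had 5, 6 and 7 counts in sham 1 to 3, and Sprr1a itself was at 0.298 to 0.642 CPM there. Dyrk3, Myoz1 and Snhg11 were below 0.22 CPM in each sham heart and between 0.348 and 3.42 in the I/R hearts.

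**Figure D2:**
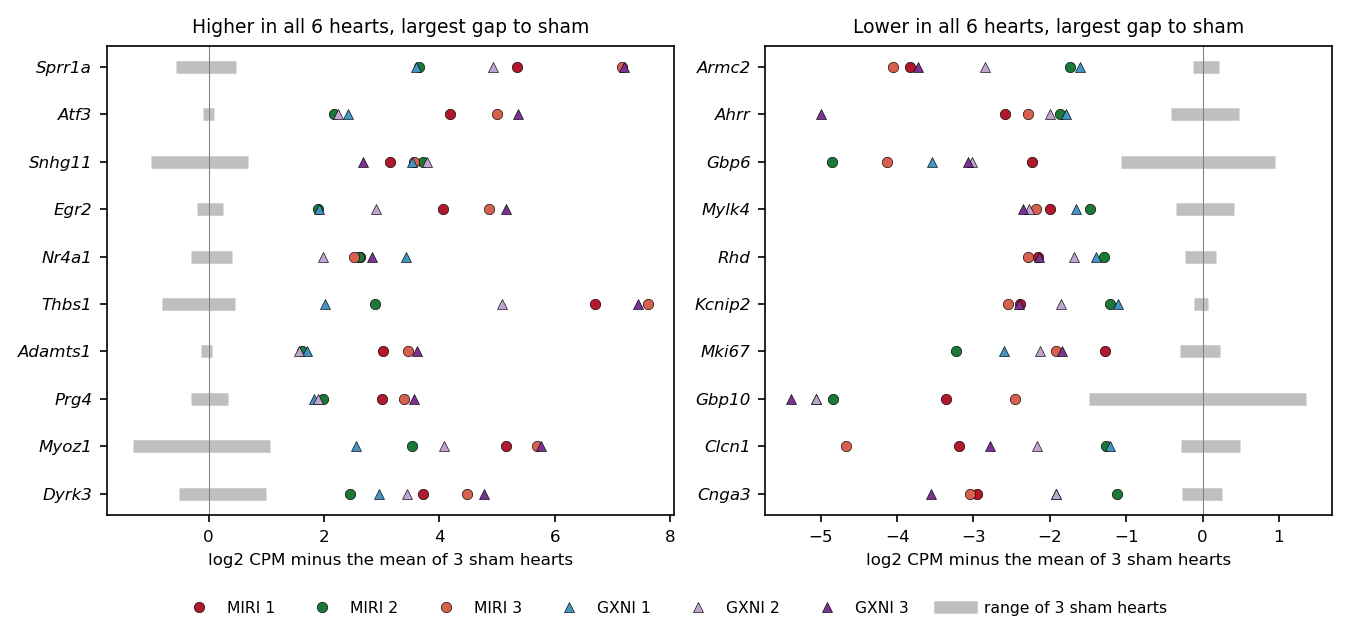
Distance of each I/R heart from the sham mean (log2 CPM, horizontal axis) for the 10 genes with the widest gap above and the 10 below the sham hearts. Colored points are the 6 hearts and the gray bar spans the 3 sham hearts, which no point enters, and Sprr1a has the widest gap at 3.12 log2 units.

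The promoters of Sprr1a and of Slc25a25 are shown because these genes rose in all 6 hearts with the widest gap and with a narrow spread, respectively. Both stretches are the 150 bases before a RefSeq transcript start on GRCm38.p6, 5′ to 3′, and the capitals mark matches to motifs searched on both strands: TGANTCA, the site of AP-1 dimers of Fos and Jun proteins, and TGACGTCA, the cAMP response element. Among all 32851 promoters of the RefSeq table, taken over 250 bases, 6.75% held the AP-1 site and 1.55% the cAMP response element. The share among genes higher in all 6 hearts is not given, since only 469 of the 636 genes matched an entry and a share over under 80% of the members is void.
Sprr1a, chr3:92485882-92486031, minus strand: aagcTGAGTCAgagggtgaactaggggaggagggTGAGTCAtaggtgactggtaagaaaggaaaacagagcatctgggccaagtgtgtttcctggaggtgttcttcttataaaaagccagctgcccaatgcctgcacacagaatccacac
Slc25a25, chr2:32424067-32424216, minus strand: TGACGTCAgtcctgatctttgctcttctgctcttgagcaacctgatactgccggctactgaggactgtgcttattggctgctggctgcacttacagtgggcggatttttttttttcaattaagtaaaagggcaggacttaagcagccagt
The AP-1 letters in Sprr1a start 146 and 116 bases before the transcript start. In Slc25a25 the 8 letters start 150 bases before the third of its listed starts. The printed start is the only listed start of this gene with a match in the 250 bases searched. Such a match is a description of the letters only.

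A few genes rose to nearly the same level in every I/R heart. Slc25a25, a mitochondrial carrier of ATP-Mg and phosphate, was at 8.16, 7.09 and 6.48 CPM in sham and ran from 20.03 in GXNI 2 through 28.3 to 36.7 in GXNI 3, with no overlap and a range of 0.87 log2 units over the 6 hearts. Its change was 1.99 ± 0.23 (adjusted p = 0.022, edgeR's quasi-likelihood test), and its locus is overlapped on the other strand by Naif1. Fbn1, which encodes the microfibril protein fibrillin-1, was at 64.4, 68.5 and 66.2 CPM in sham and between 122 (MIRI 2) and 158 (MIRI 1) with a median of 139 after I/R. The 6 hearts spanned only 0.37 log2 units, and the change was 1.08 ± 0.13 (adjusted p = 0.022, edgeR's quasi-likelihood test). Fstl1, a secreted follistatin-like protein made by heart cells after injury, went from 75.4 to 85.0 CPM in sham to between 122 (GXNI 1) and 182 (MIRI 3). Nfe2l2, which encodes the antioxidant regulator NRF2, was at 53.2 to 59.95 CPM in sham and between 78.4 (MIRI 2) and 113 (GXNI 3) in the I/R hearts. Loxl1, a lysyl oxidase that cross-links elastin, was at 33.3 to 44.9 CPM in sham and between 65.8 (MIRI 2) and 92.9 (MIRI 3). Of the genes higher in all 6, 215 varied by less than 1 log2 unit over the hearts, and among the genes lower in all 6 the number was 155. Calls for Slc25a25, Fbn1, Fstl1, Nfe2l2 and Loxl1 were kept with any single library left out.

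Immediate early genes were largely shared by the 6 hearts. Of 26 AP-1 and immediate early genes tested, 17 (65.4%, against 5.52% of all genes) were called higher and none lower, and 13 were above every sham heart in all 6: Nr4a1, Jund, Ccn2, Atf3, Nr4a3, Egr2, Fos, Fosb, Fosl2, Nr4a2, Dusp5, Egr3 and Ccn1. Atf3, a stress-induced repressor of the ATF family, was at 3.12, 2.73 and 2.89 CPM in sham and ran from 13.3 in MIRI 2 through 34.4 to 120 in GXNI 3, a change of 4.15 ± 0.92. Jund, the most widely expressed Jun protein, was at 27.0 to 34.9 CPM in sham and between 56.5 (GXNI 1) and 90.0 (MIRI 3), a smaller change of 1.19 ± 0.18 that differed little from heart to heart. Fos was at 3.33, 0.645 and 3.53 CPM in sham and between 7.99 (MIRI 2) and 48.1 (GXNI 3) with a median of 17.7. Its partner Jun was not called (unadjusted p = 0.0562, edgeR's quasi-likelihood test), and GXNI 2, at 43.3 CPM, lay within the sham range of 42.4 to 51.2. Nr4a1, Nr4a3 and the kinase gene Sik1, which are known to respond to cAMP, departed from the order of most genes: Nr4a1 and Nr4a3 were highest in GXNI 1, at 118 and 20.6 CPM, and Sik1 was second highest there, at 142 CPM behind 172 in GXNI 3, with sham hearts at 16.1 to 39.5. Egr1 and Myc were called higher, but MIRI 2 or GXNI 1 stayed in the sham range: Egr1 was at 11.03 CPM in GXNI 1 against 11.5 in sham 3, and Myc at 6.29 CPM in MIRI 2 against 6.55 in sham 1. The count of 17 fell to 8 without sham 2 and was 22 without MIRI 2.

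Dusp5, a nuclear phosphatase that switches off ERK and is transcribed along with immediate early genes, was at 3.87, 4.71 and 7.55 CPM in sham and ran from 11.1 in GXNI 2 through 23.2 to 69.3 in GXNI 3. No I/R heart overlapped the sham hearts, and the change was 2.61 ± 0.68, although the call was lost without sham 1 or sham 2. Its promoter is printed because it carries 2 adjacent matches to the CArG box, the site of serum response factor, which 1.47% of all promoters held. The capitals mark both matches, which run from 82 to 63 bases before the start, and the antisense transcript AC137853.2 overlaps the gene.
Dusp5, chr19:53528995-53529144, plus strand: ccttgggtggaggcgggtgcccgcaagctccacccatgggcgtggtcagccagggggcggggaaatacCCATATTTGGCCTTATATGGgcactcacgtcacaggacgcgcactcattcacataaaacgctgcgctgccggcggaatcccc

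Cytoskeletal and adhesion genes rose together. Of 32 tested, 22 (68.8%) were called higher, none lower and none split the hearts, and 18 were above sham in all 6, including the actins Actb and Actg1, the tubulins Tubb3, Tubb2b, Tuba1a and Tubb6, the focal adhesion genes Zyx and Vcl, and the integrins Itgb1, Itga5 and Itgb3. Actg1, cytoplasmic gamma-actin, was at 166, 170 and 171 CPM in sham and ran from 269 in MIRI 2 through 486 to 897 in GXNI 3, a change of 1.72 ± 0.43. Msn, which encodes moesin and links actin to the membrane, was at 179 to 209 CPM in sham and between 275 (GXNI 1) and 1091 (GXNI 3). Zyx, which encodes zyxin and gathers at strained actin fibers, was at 38.8 to 52.7 CPM in sham and between 74.5 (MIRI 2) and 157 (MIRI 3). Tubb2b was the member in which 1 heart lagged most, with sham hearts at 2.18 to 2.68 CPM, GXNI 1 at 2.93 and the other 5 hearts between 9.22 and 16.6. The 22 calls became 9 without sham 1 or sham 2. Actg1 lost its call when any single sham heart was left out, and Actb then or without MIRI 1 or GXNI 3, while Zyx, Vcl, Msn, Itgb1, Tubb3 and Tubb2b kept theirs.

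In genes of the fetal heart program and of stretched cardiomyocytes, GXNI 1 lay with the sham hearts. Of 19 tested, 9 (47.4%) were called higher, namely Fhl1, Synpo2l, Xirp2, Flnc, Xirp1, Ankrd23, Ankrd1, Nppb and Nrap, but only Fhl1 and Synpo2l were above sham in all 6. Fhl1, a LIM protein that senses stretch in the sarcomere, was at 148, 130 and 163 CPM in sham, at 177 in GXNI 1 and between 837 (GXNI 2) and 1477 (MIRI 3) in the other 5 hearts. GXNI 1 cleared the sham hearts by 0.12 log2 units and the other 5 by more than 2, and the change was 2.78 ± 0.57. Flnc, which encodes filamin C of the Z-disc, was at 233 to 324 CPM in sham and 286 in GXNI 1, against 1004 (MIRI 2) to 3848 (GXNI 3) elsewhere. Nppb, brain natriuretic peptide, was at 10.6, 69.0 and 87.7 CPM in sham and 32.7 in GXNI 1, against 377 (GXNI 2) to 2416 (GXNI 3). Acta1, skeletal alpha-actin and a member of the fetal program, was at 157 to 252 CPM in sham, 38.8 in GXNI 1 and 303 to 581 in the other 5 hearts, so that GXNI 1 lay below every sham heart. Summed over the list, sham hearts held 14010 to 17130 CPM, GXNI 1 held 12610, MIRI 2 held 28030 and MIRI 3, the highest, 51410. MIRI 2, the heart nearest to sham next to GXNI 1, was above sham in 18 of the 19 genes and GXNI 1 in 3. Of all genes, 31.8% were above sham in MIRI 2 and 30.3% in GXNI 1. The 9 calls became 2 without sham 1 or sham 2 and 15 without GXNI 1, and the calls of Flnc and Nppb were lost when any single sham heart was left out, that of Nppb also without MIRI 1, MIRI 3 or GXNI 3.

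The Fhl1 promoter is shown because the gene was far above sham in 5 hearts and near it in GXNI 1. Its capitals mark a CArG box match 102 to 93 bases before the start listed by RefSeq.
Fhl1, chrX:56779533-56779682, plus strand: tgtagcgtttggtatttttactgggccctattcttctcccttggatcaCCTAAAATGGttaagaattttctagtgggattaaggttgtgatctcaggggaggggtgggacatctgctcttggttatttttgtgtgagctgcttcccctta

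Some transcripts of matrix rebuilding were higher in every heart. Of 27 collagen and collagen-processing genes, 9 (33.3%) were called higher, and all 9 were above sham in all 6 hearts: the lysyl oxidases Loxl1 and Loxl2, the collagen chaperone Serpinh1, and Col4a1, Col4a2, Col5a2, Col6a3, Col12a1 and Col15a1. Loxl2 was at 14.0, 13.5 and 13.7 CPM in sham and ran from 21.2 in MIRI 1 through 25.3 to 46.5 in MIRI 3, a change of 1.11 ± 0.25. Serpinh1, also called HSP47, was at 175 to 207 CPM in sham and between 260 (MIRI 2) and 576 (MIRI 3). Col3a1, a main fibrillar collagen, was not called, with sham hearts at 268 to 432 CPM and I/R hearts from 169 (GXNI 3) to 750 (GXNI 1), and its log2 difference was -0.13 ± 0.42. The 9 calls became 3 without sham 2, and Serpinh1 lost its call without sham 1 or sham 2. Among 21 matricellular genes, which encode matrix proteins that signal rather than bear load, 8 (38.1%) were higher and Sparcl1 was lower, and Ccn2, Thbs4, Vcan, Thbs1, Fn1 and Ccn1 were above sham in all 6. Ccn2, connective tissue growth factor, was at 48.0, 40.7 and 33.6 CPM in sham and ran from 130 in GXNI 1 through 449 to 745 in GXNI 3, a change of 3.47 ± 0.63. Vcan, the large proteoglycan versican, was at 12.9 to 18.1 CPM in sham and between 30.5 (MIRI 2) and 109 (GXNI 3). Tnc, which encodes tenascin-C of healing wounds, was called higher although GXNI 1, at 1.24 CPM, lay within the sham range of 1.12 to 1.54, and the other 5 hearts were at 12.7 to 186. The 8 calls became 4 without sham 1 or sham 3, and Tnc and Fn1 were not called when any single sham heart was left out, nor Fn1 without MIRI 1 or GXNI 3.

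Of 24 genes of metalloproteinases and their TIMP inhibitors, 9 (37.5%) were called higher and Adamts5 lower, and Adamts1, Adamts8, Adam19, Timp1, Mmp19 and Adamts9 were above sham in all 6. Adamts1, a protease that cleaves versican, was at 42.9, 42.9 and 37.6 CPM in sham and ran from 122 in GXNI 2 through 233 to 501 in GXNI 3, a change of 2.76 ± 0.56. Timp1, an inhibitor of metalloproteinases, was at 17.1, 8.83 and 20.2 CPM in sham and between 32.1 (MIRI 2) and 217 (MIRI 3), a change of 2.98 ± 0.70. Both genes stood clear of sham in all 6 hearts, whereas Mmp8, Mmp13, Mmp14 and Adam8 split the hearts. The 9 calls became 4 without sham 2 or sham 3. Among 19 coagulation and fibrinolysis genes, 7 (36.8%) were higher, with F13a1, Anxa2, S100a10, Plaur, F10 and Procr above sham in all 6, and none of the 7 calls held without sham 3. Plaur, the urokinase receptor, was at 2.43 to 3.85 CPM in sham and ran from 6.11 in GXNI 1 through 54.5 to 163 in GXNI 3. No I/R heart overlapped sham, and leaving out any single sham heart ended the call of Plaur.

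Of 20 secreted stress factors of the heart, 10 (50.0%) were called higher, and Fstl1, Fstl3, Timp1, Hbegf, Inhbb and Lif were above sham in all 6. Fstl3, which binds activins, was at 2.63, 2.08 and 1.98 CPM in sham, 2.98 in GXNI 1 and between 10.8 (GXNI 2) and 32.1 (MIRI 3) in the other 5 hearts. Gdf15, a stress cytokine of the TGF-beta family, reached 58.3 CPM in MIRI 3 but was at 1.39 in GXNI 1, level with sham 3 at 1.39. Gdf15 was called higher and lost its call when any single sham heart, MIRI 1, MIRI 3 or GXNI 3 was left out, and the 10 calls became 3 without sham 1 or sham 2. Tgfb2, transforming growth factor beta 2, was at 5.42, 7.99 and 10.3 CPM in sham and ran from 13.3 in GXNI 1 through 45.9 to 63.1 in MIRI 1, a change of 2.44 ± 0.48. Nmrk2, a nicotinamide riboside kinase known to be induced in stressed muscle, was at 5.64, 9.22 and 8.83 CPM in sham and ran from 21.1 in GXNI 1 through 196 to 677 in GXNI 3. All 6 hearts were above sham in both genes, with GXNI 1 nearest.

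Of 25 TNF receptor and NF-kappa-B feedback genes, 5 were called higher, with Tnfrsf12a, Tnfaip6, Relb and Ptgs2 above sham in all 6, and 2 of the calls remained without sham 1 or sham 2 while 11 were made without MIRI 2. Tnfrsf12a, the receptor of the cytokine TWEAK, was at 10.5, 24.8 and 30.9 CPM in sham and ran from 35.4 in GXNI 1 through 231 to 470 in GXNI 3, a change of 3.50 ± 0.78. Tnfaip6, which encodes the hyaluronan-binding protein TSG-6, was at 1.19 to 1.45 CPM in sham and between 2.76 (MIRI 2) and 12.1 (GXNI 3). Of the genes that the study followed by sequencing or RT-PCR, Ptgs2, which encodes the prostaglandin synthase COX-2, was at 0.860, 0.298 and 0.428 CPM in sham, 0.894 in GXNI 1, 1.998 in MIRI 2 and 4.31 to 50.8 in the other 4 hearts. Its call (log2 change 5.18 ± 1.47) was lost when any single sham heart or MIRI 3 was left out, and that of Relb without sham 1 or sham 2. Rela, the p65 subunit of NF-kappa-B, was above sham in all 6 hearts, at 40.0 to 85.6 CPM against 33.5 to 35.4, but missed the threshold (unadjusted p = 0.013, edgeR's quasi-likelihood test). Icam1 (unadjusted p = 0.0347 in the same edgeR quasi-likelihood test), Vcam1 (0.166) and Nfkb1 (0.0989) were not called, and MIRI 2 lay below every sham heart in each of the 3. Cxcr1, the chemokine receptor on which the study turned, had 0, 1 and 1 counts in sham 1 to 3, 8, 0 and 19 in MIRI 1 to 3 and 0, 1 and 9 in GXNI 1 to 3, and was under the filter on low counts.

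Protein-folding stress transcripts were shared in part. Of 30 unfolded protein and integrated stress response genes, 9 were called higher, and Hyou1, Atf3, Slc3a2, Xbp1, Psat1, Ppp1r15a, Pdia4 and Creld2 were above sham in all 6, while Asns, Mthfd2, Sesn2, Phgdh and Trib3 split the hearts. Hyou1, a chaperone of the endoplasmic reticulum, was at 55.5, 43.0 and 46.8 CPM in sham and ran from 78.7 in MIRI 2 through 119 to 180 in GXNI 3, a change of 1.36 ± 0.28. Herpud1, which takes part in clearing misfolded proteins from the endoplasmic reticulum, went the other way, with 530, 281 and 308 CPM in sham and 79.7 (MIRI 1) to 202 (GXNI 1) after I/R, a change of -1.48 ± 0.33. No heart overlapped sham in either gene. The 9 calls became 2 without sham 2, and Xbp1 lost its call with any single sham heart left out.

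Genes lower in all 6 hearts included transcripts of the cardiomyocyte's electrical and contractile apparatus. Mylk4 (chromosome 13, 32700834 to 32783954, minus strand), a myosin light chain kinase family member of heart muscle, was at 182, 254 and 150 CPM in sham and between 37.5 (GXNI 3) and 68.8 (MIRI 2) with a median of 45.1 after I/R, a change of -1.98 ± 0.23 (adjusted p = 0.022, edgeR's quasi-likelihood test). Of 24 potassium, sodium and gap junction channel genes, Kcnip2, Kcnj2, Abcc9 and Scn4b were called lower (16.7%, against 2.85% of all genes) and 1 member was called higher. Kcnip2, the channel-interacting protein that sets the transient outward potassium current, was at 168, 148 and 164 CPM in sham and ran from 27.1 in MIRI 3 through 37.2 to 74.2 in GXNI 1, a change of -1.80 ± 0.32. Scn4b, a sodium channel beta subunit, was at 29.6, 34.6 and 40.6 CPM in sham and between 3.33 (MIRI 3) and 22.6 (GXNI 1) after I/R. No I/R heart overlapped sham in either gene. Of the 4 lower calls 1 was left without sham 1 or sham 3, Scn4b was also lost without sham 2, MIRI 1, MIRI 2 or GXNI 2, and Kcnip2 kept its call with any single library left out.

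Of 20 sarcomere genes, Tcap, Mybpc3 and Myom2 were called lower (15.0%) and Pdlim5 higher. Tcap, the titin cap of the Z-disc, was at 2234, 2361 and 2146 CPM in sham and ran from 442 in MIRI 3 through 493 to 1349 in MIRI 2, a change of -1.69 ± 0.35. Mybpc3, cardiac myosin-binding protein C, was at 2154 to 2298 CPM in sham and between 867 (MIRI 1) and 1589 (MIRI 2). Adra1a, the alpha-1A adrenergic receptor, was called lower in a list of 25 adrenergic, angiotensin and endothelin genes of which 4 were called higher (1 when a sham heart or MIRI 1 was left out). It was at 32.3, 31.7 and 24.2 CPM in sham and ran from 3.38 in MIRI 3 through 7.88 to 14.4 in GXNI 1, a change of -1.80 ± 0.38. These 3 genes were below the sham range in every I/R heart and kept their calls with any library left out. Atp2a2, the calcium pump SERCA2, was below sham in all 6 hearts, at 5151 to 12060 CPM against 13580 to 15220, but missed the threshold (unadjusted p = 0.0245, edgeR's quasi-likelihood test). Within the 20 sarcomere genes the median log2 difference was -0.28, against 0.01 over all genes tested.

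Several transcripts of the circadian clock differed in every heart. Among 21 circadian clock genes, Nfil3 and Arntl were called higher and Dbp, Tef, Nr1d2 and Ciart lower, and all 6 stood outside the sham range in every heart. Nfil3, a repressor of the D-box elements on which Dbp and Tef act, was at 8.06, 5.31 and 7.71 CPM in sham and ran from 16.6 in GXNI 1 through 29.5 to 55.6 in MIRI 3, a change of 2.28 ± 0.50. Dbp was at 63.9, 106 and 102 CPM in sham and ran from 11.2 in MIRI 1 through 18.8 to 60.5 in MIRI 2. MIRI 2 cleared the lowest sham heart by only 0.08 log2 units, and the change was -1.71 ± 0.50. None of the 4 lower calls held without sham 2 or sham 3, while Nfil3 kept its call in every case.

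Some cell division transcripts were lower in every I/R heart. Of 31 cell cycle and mitosis genes, 8 (25.8%) were called lower and none higher by edgeR's quasi-likelihood test (2 were higher at an unadjusted p under 0.05, and DESeq2 and the replicate block called 1 each), and Aurkb, Mki67, Ccna2, Cdk1, Top2a, Cdc45, Ccne2 and Rrm2 were below every sham heart in all 6. Mki67, the proliferation antigen Ki-67, was at 5.42, 3.77 and 4.87 CPM in sham and ran from 0.470 in MIRI 2 through 1.13 to 1.91 in MIRI 1, a change of -2.06 ± 0.35. Aurkb, the mitotic kinase Aurora B, was at 0.806, 0.794 and 0.910 CPM in sham and between 0.0580 (GXNI 3) and 0.279 (MIRI 1), so that some hearts were under the level of 3 counts. Ccna2 and Cdk1 also rested on few reads in the I/R hearts, with 1 to 7 and 3 to 12 counts. The 8 calls became 3 without sham 1 or sham 3, and Mki67 and Aurkb were kept in every case. The summed level of the list was 295 to 338 CPM in sham, 272 in MIRI 2 and 653 in MIRI 3. Cdkn1a, a member that split the hearts, held 356 CPM in MIRI 3 and 28.7 to 102 in sham. The median distance of the members from the sham mean was -0.05, -0.51 and 0.13 log2 units in MIRI 1 to 3. In GXNI 1 to 3 it was -0.51, -0.44 and -0.54. The list went both ways. Below every sham heart lay 15, 23 and 13 of the 31 members in MIRI 1 to 3 and 19, 21 and 18 in GXNI 1 to 3. Above every sham heart lay 9, 2 and 13 in MIRI 1 to 3 and 2, 4 and 10 in GXNI 1 to 3. Of all genes, 31.6% to 43% were below and 30.3% to 41.7% above in the 6 hearts. Cholesterol synthesis and its control contributed Insig1, Mvk, Fdft1 and Idi1 (4 of 20 lower), and autophagy Atg14, Optn and Ulk1 (3 of 29 lower), all below sham in every heart. Optn, a receptor that brings damaged mitochondria to autophagosomes, was at 83.4, 84.6 and 86.5 CPM in sham and ran from 40.1 in MIRI 3 through 44.9 to 58.0 in MIRI 2, a change of -0.84 ± 0.14. Without sham 3 only 1 of the 4 cholesterol genes was still called, whereas Optn, Atg14 and Insig1 kept their calls with any library left out.

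Gbp6, Gbp10 and Igtp, GTPases that interferon-gamma induces, fell in all 6 hearts from sham levels that were themselves uneven. Gbp6 was at 27.0, 61.2 and 109 CPM in sham 1 to 3 and ran from 1.94 in MIRI 2 through 5.75 to 12.0 in MIRI 1, a change of -3.46 ± 0.53. Igtp was at 51.3, 250 and 669 CPM in sham 1 to 3 and between 10.6 (MIRI 2) and 38.1 (MIRI 1), so that MIRI 1 was 0.43 log2 units below the lowest sham heart. The groups did not overlap in Gbp6 or Igtp, but the sham hearts themselves were spread widely. Irgm1, a related GTPase, was also called lower, but MIRI 1 and GXNI 3, at 59.4 and 66.3 CPM, lay above sham 1 at 43.0. Gbp6 and Gbp10 share sequence with other members of their family, and Igtp is overlapped on the same strand by Irgm2. Other genes lower in all 6 by a wide gap were Armc2, an axonemal gene, at 35.4, 44.1 and 35.0 CPM in sham and 2.25 (MIRI 3) to 12.5 (GXNI 1), and Rhd, a blood group gene, at 6.42 to 8.49 CPM in sham and 1.52 (MIRI 3) to 3.06 (MIRI 2).

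A second set of genes did not move with the arm but divided the 6 hearts. A gene was counted as split on the high side when at least 2 hearts exceeded the highest sham heart by at least 1 log2 unit and at least 2 did not exceed it, and on the low side in the same way downward. By this rule 545 genes (3.58% of those tested) split on the high side and 391 (2.57%) on the low side, with 10 on both. For 404 of the 545 (74.1%) the hearts above sham were exactly MIRI 1, MIRI 3, GXNI 2 and GXNI 3, and for another 61 (11.2%) they were MIRI 1, MIRI 3 and GXNI 3. On the low side 231 of 391 (59.1%) were below sham in exactly those 4 hearts. Both saline and GXNI hearts were therefore on each side. The rule asks only how far single hearts lie from sham, and no test was made between the sides. Without MIRI 2 the counts became 98 and 112 and without GXNI 1 109 and 119, and on the low side 202 without MIRI 3 and 194 without GXNI 3. With MIRI 2 and GXNI 1 both left out, a choice made after seeing the data, the pooled test called 2417 genes higher and 1917 lower.

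**Figure D3:**
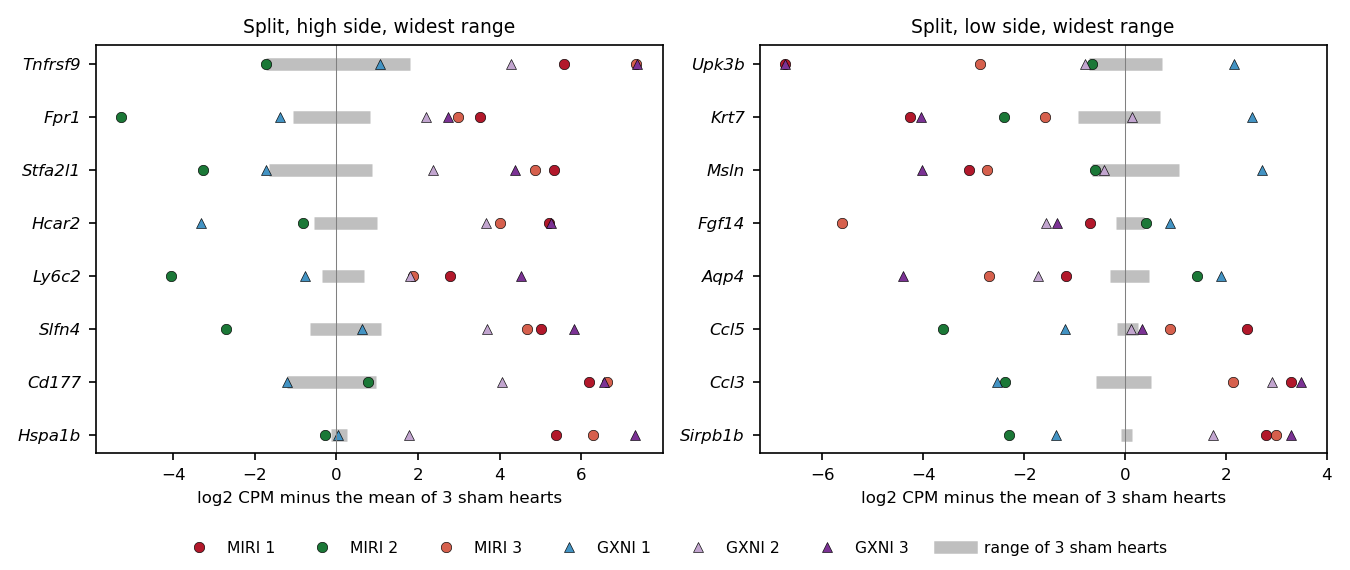
Distance of each I/R heart from the sham mean (log2 CPM) for the 8 genes with the widest range over the 6 hearts on the high side and on the low side. Colored points are hearts and gray bars the 3 sham hearts, and in the high-side genes MIRI 2 and GXNI 1 lie in or below the sham range, as in Slfn4 with 2.23 CPM in MIRI 2 and 824 CPM in GXNI 3.

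Neutrophil genes gave a clear example. Of 21 tested, 14 split the hearts on the high side, and 4 were called higher. Each of MIRI 1 and MIRI 3 had 20 of the 21 above sham, GXNI 3 had 19 and GXNI 2 had 18, whereas GXNI 1 had 6 and MIRI 2 had 3. Of all genes tested, 39.1%, 31.8% and 41.7% were above every sham heart in MIRI 1 to 3 and 30.3%, 36.5% and 41.1% in GXNI 1 to 3, so that the share in GXNI 1 was near that of all genes. S100a9, a subunit of calprotectin and among the most abundant neutrophil transcripts, was at 13.1, 6.89 and 15.6 CPM in sham, 7.46 in MIRI 2 and 12.8 in GXNI 1, but 51.2 in GXNI 2, 156 in MIRI 3, 204 in GXNI 3 and 225 in MIRI 1. The first pair lay inside the sham range and the other 4 hearts above it, and S100a9 was not called (unadjusted p = 0.0158, edgeR's quasi-likelihood test). Cxcr2, the receptor through which neutrophils follow CXC chemokines, was at 3.60, 1.24 and 4.44 CPM in sham, 0.823 in MIRI 2, 2.58 in GXNI 1 and 16.4 to 74.0 in the other 4 hearts, with MIRI 2 below every sham heart. Trem1, an amplifying receptor of myeloid cells, was at 0.298 to 0.589 CPM in sham, 0.348 and 0.529 in GXNI 1 and MIRI 2, and 7.14 to 39.9 in the others. Only Padi4, which citrullinates histones, and Ltf, lactoferrin, were called and above sham in all 6, and Ltf had 0 counts in each sham heart and was at 0.0497 CPM in GXNI 1. Lcn2, which injured tissue also makes, went against this order and was highest in GXNI 1, at 575 CPM against 125 to 151 in sham, 204 in MIRI 2 and 131 in GXNI 3. The neutrophil genes, Lcn2 included, summed to 215 to 305 CPM in sham, 276 in MIRI 2, 682 in GXNI 1 and 1848 in GXNI 3. Most of the sum in GXNI 1 and in MIRI 2 was thus Lcn2. Of the 21 genes, 14 were called without MIRI 2, 18 without both MIRI 2 and GXNI 1, and none when any single sham heart, MIRI 1 or MIRI 3 was left out, nor was Padi4 without GXNI 3.

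Monocyte and interleukin-1 genes divided the hearts in a similar way. Among 23 genes of recruited monocytes and macrophages, 10 split the hearts on the high side, as 3.58% of all genes did. Of the 23, 6 (26.1%, against 5.52% of all genes) were called higher, with Vcan, Thbs1, Msr1 and Fn1 above sham in all 6. Vcan, Thbs1 and Fn1 are matrix genes that were also counted in the matricellular list above, so they are not particular to monocytes. Ccl2, the chemokine that draws monocytes, was at 1.61, 4.22 and 6.26 CPM in sham, 3.94 in MIRI 2, 2.88 in GXNI 1 and 45.2 to 149 in the other 4 hearts. Msr1, a scavenger receptor, showed the shared pattern instead, at 8.004 to 9.69 CPM in sham, 10.3 in MIRI 2, 14.8 in GXNI 1 and 30.2 to 51.9 elsewhere, a call that was lost when any single sham heart was left out. Of 21 interleukin-1 family genes, 8 split the hearts on the high side, as 3.58% of all genes did: Il1rn, Il1f9, Il1r2, Il18rap, Il1b, Nlrp3, Il1rap and Il18. The quasi-likelihood test of edgeR called 1 higher (4.76%, near the 5.52% of all genes), the signaling kinase gene Irak2. That count was 7 with DESeq2, 3 with the replicate block, 11 without MIRI 2 and 13 without MIRI 2 and GXNI 1. Il1b, interleukin-1 beta, was at 0.744 to 3.16 CPM in sham, 0.823 in MIRI 2, 1.09 in GXNI 1, 11.5 in GXNI 2 and 31.1 to 37.4 in the other 3. Il1rn, the interleukin-1 receptor antagonist, was at 0.446 to 1.499 CPM in sham and 0.588 and 0.745 in MIRI 2 and GXNI 1, against 26.5 to 64.0. The agonist and its antagonist were thus high in the same 4 hearts. Irak2 was at 7.01 to 10.6 CPM in sham and between 11.6 (MIRI 2) and 28.4 (GXNI 3).

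**Figure D4:**
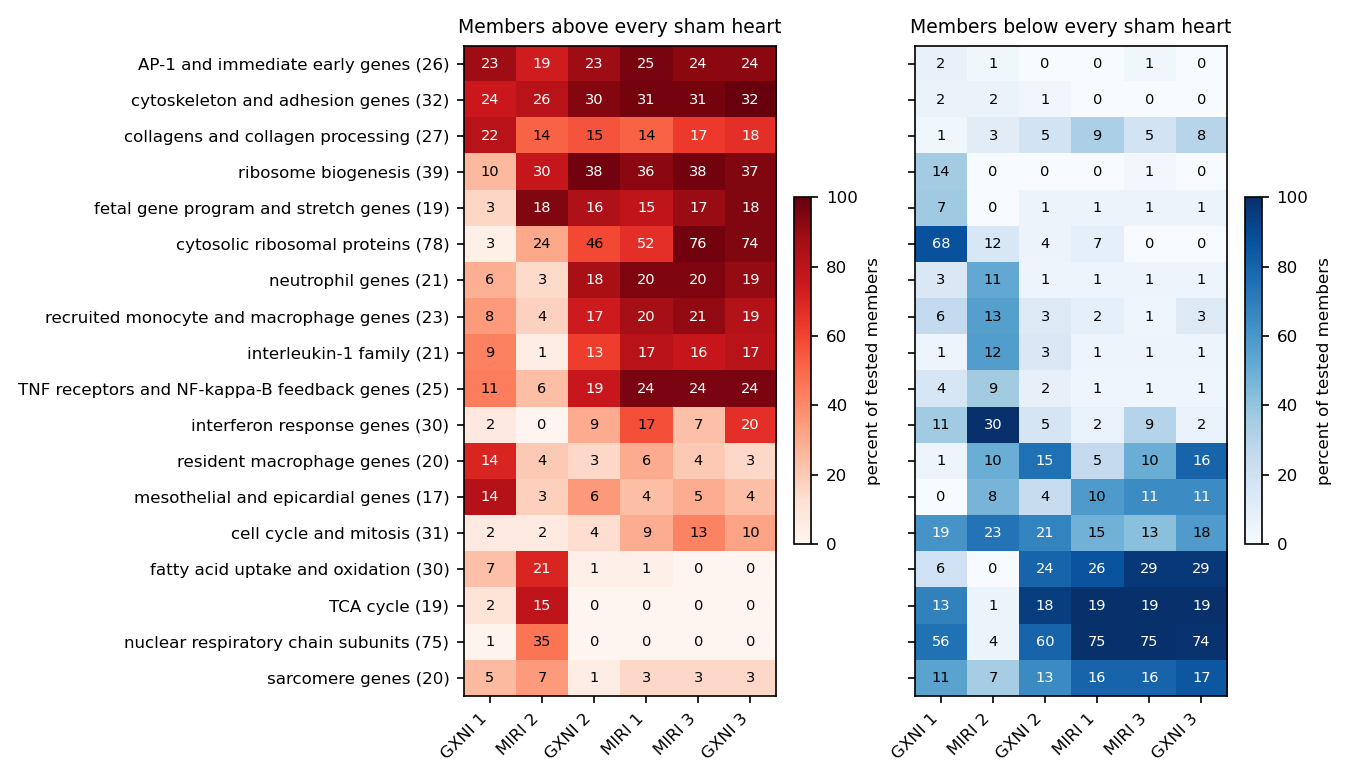
Percent of the tested members of 18 gene lists that lay above every sham heart (left panel) or below every sham heart (right panel) in each I/R heart, as a color scale. Neutrophil genes were above sham in 20 of 21 members in MIRI 1 and 3 of 21 in MIRI 2, while immediate early genes were above sham in at least 19 of 26 members in every heart.

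The inducible heat shock genes separated 3 hearts from the rest. Hspa1b, an inducible HSP70, was at 3.17, 2.43 and 2.46 CPM in sham, 2.17 in MIRI 2 and 2.73 in GXNI 1, 9.12 in GXNI 2, and 112, 209 and 430 in MIRI 1, MIRI 3 and GXNI 3. Thus 3 hearts were far above sham, GXNI 2 was nearer to it, and MIRI 2 and GXNI 1 were in or below the sham range. Its near-copy Hspa1a was far above sham in the same 3 hearts, but it did not split the 6 and was not called. GXNI 1 at 2.48 CPM and MIRI 2 at 2.997 lay just above its sham range of 1.98 to 2.20. Reads of the pair may have been divided between them by the counting. Hspb1, the small heat shock protein HSP27, was at 176 to 224 CPM in sham, 224 in GXNI 1 and 795 (MIRI 2) to 3105 (MIRI 3) in the other 5 hearts, and was called higher. Of 25 heat shock and co-chaperone genes, 3 (12.0%) were called higher, none of them without sham 1 or sham 2, and 7 without GXNI 1. Fkbp4, an HSP90 co-chaperone, was called lower and was below sham in all 6 hearts, at 135 to 232 CPM against 267 to 308, a call lost without sham 2 or sham 3. The Hspa1b promoter is shown because the gene was among the 8 high-side genes with the widest range over the 6 hearts. The capitals mark GAANNTTC, a pair of inverted heat shock repeats that 6.69% of all promoters held, 104 to 97 bases before the start. The same stretch of Hspa1a is equal to it in 149 of 150 bases.
Hspa1b, chr17:34959239-34959388, minus strand: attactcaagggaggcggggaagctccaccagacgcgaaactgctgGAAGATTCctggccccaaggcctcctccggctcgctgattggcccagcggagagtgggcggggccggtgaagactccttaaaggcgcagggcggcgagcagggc

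Interferon response genes set MIRI 2 apart in the downward direction. All 30 tested members were below every sham heart in MIRI 2, where 33.6% of all genes were. Fewer were below sham elsewhere, with 11 in GXNI 1 and 9 in MIRI 3, where 31.6% and 41.5% of all genes were. Above sham were 20 in GXNI 3 and 17 in MIRI 1, where 41.1% and 39.1% of all genes were. Summed over the list the sham hearts were uneven, at 843, 2244 and 3947 CPM, and MIRI 2 was at 244 CPM. Ifit3, an antiviral protein gene, was at 28.3, 50.7 and 71.9 CPM in sham and ran from 3.64 in MIRI 2 to 132 in MIRI 1 and 181 in GXNI 3. Irf7, the transcription factor that amplifies type I interferon, was at 126 to 231 CPM in sham, 6.17 in MIRI 2, 47.6 in GXNI 1 and 197 and 200 in GXNI 3 and MIRI 1. The I/R hearts therefore lay on both sides of sham for Ifit3. The 4 members called lower (13.3%) included Igtp, Iigp1 and Irgm1, none was called higher by edgeR's quasi-likelihood test, and 2 of the 4 were still called without sham 2 or sham 3.

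Most mesothelial and resident macrophage genes were above sham in GXNI 1. Of 17 mesothelial and epicardial genes, 14 were above every sham heart in GXNI 1, where 30.3% of all genes were, and none was below. In the other 5 hearts 3 to 6 members were above sham and 4 to 11 below, with 8 below in MIRI 2, a share not far from that of all genes. Msln, the mesothelial surface protein mesothelin, was at 8.76, 3.12 and 2.62 CPM in sham and 27.4 in GXNI 1, but 0.232 to 3.12 in the other 5 hearts. Upk3b, another gene of the heart's outer lining, was at 1.64 to 4.51 CPM in sham and 12.1 in GXNI 1, with 0 counts in MIRI 1 and GXNI 3. Aldh1a2, the retinoic acid enzyme of activated epicardium, was shared instead and rose in all 6 hearts, from 4.51 to 8.67 CPM in sham to between 14.9 (MIRI 2) and 79.4 (GXNI 3), a change of 2.87 ± 0.57. Of 20 resident macrophage genes, 14 were above sham in GXNI 1, against 3 to 6 in the other hearts, where 31.8% to 41.7% of all genes were. Below sham were 15 in GXNI 2 and 16 in GXNI 3, where 35.9% and 43% of all genes were. Cd163, a scavenger receptor of resident macrophages, was at 27.0 to 63.2 CPM in sham, 82.9 in GXNI 1 and 12.5 to 48.2 elsewhere. Of the collagen and collagen-processing genes, 22 of 27 were above sham in GXNI 1 and 14 to 18 in the others. Of all genes, 30.3% were above sham in GXNI 1 and 31.8% to 41.7% in the others. The summed level of the collagen list was 5246 CPM in MIRI 3 and 4963 in GXNI 3 against 4176 in GXNI 1. The part of these marker genes in the other differences between hearts was not tested.

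Many metabolic genes were above sham in MIRI 2 and below it in MIRI 1, MIRI 3, GXNI 2 and GXNI 3. In GXNI 1, 13 of 19 TCA cycle genes were below sham and 2 above, and 15 of 21 branched-chain amino acid genes were below and 0 above. The fatty acid genes were mixed in GXNI 1, with 6 of 30 below sham and 7 above. None of 75 nuclear respiratory chain subunits, 19 TCA cycle genes, 30 fatty acid genes and 21 branched-chain amino acid genes was called in either direction by edgeR's quasi-likelihood test, in which 8, 1, 2 and 3 of them were lower at an unadjusted p under 0.05. DESeq2 called 1 fatty acid and 1 branched-chain amino acid gene lower, and 4 of the latter passed on the limma voom p with the edgeR fold change. All 75 respiratory chain subunits were below every sham heart in MIRI 1 and MIRI 3, 74 in GXNI 3, 60 in GXNI 2 and 56 in GXNI 1, but 4 in MIRI 2, where 35 were above sham. Of all genes, 40.2%, 33.6% and 41.5% were below sham in MIRI 1 to 3 and 31.6%, 35.9% and 43% in GXNI 1 to 3. The distances were small, with medians over the subunits of -0.41, 0.07 and -0.39 log2 units in MIRI 1 to 3 and -0.14, -0.15 and -0.40 in GXNI 1 to 3. Cs, citrate synthase of the TCA cycle, was at 1167, 1140 and 1217 CPM in sham, 1417 in MIRI 2 and 1285 in GXNI 1, and 747 to 1019 in the other 4 hearts. Acadm, the medium-chain acyl-CoA dehydrogenase, was at 1008 to 1094 CPM in sham and 1202 in MIRI 2, 1054 in GXNI 1 and 553 to 817 elsewhere. Slc27a1, a fatty acid transporter, repeated this order, at 163 to 263 CPM in sham, 282 and 272 in MIRI 2 and GXNI 1, and 98.4 to 148 in the other 4. Without MIRI 2 and GXNI 1, 14 fatty acid genes, 12 branched-chain amino acid genes, 3 respiratory chain subunits and 2 TCA cycle genes were called lower.

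**Figure D5:**
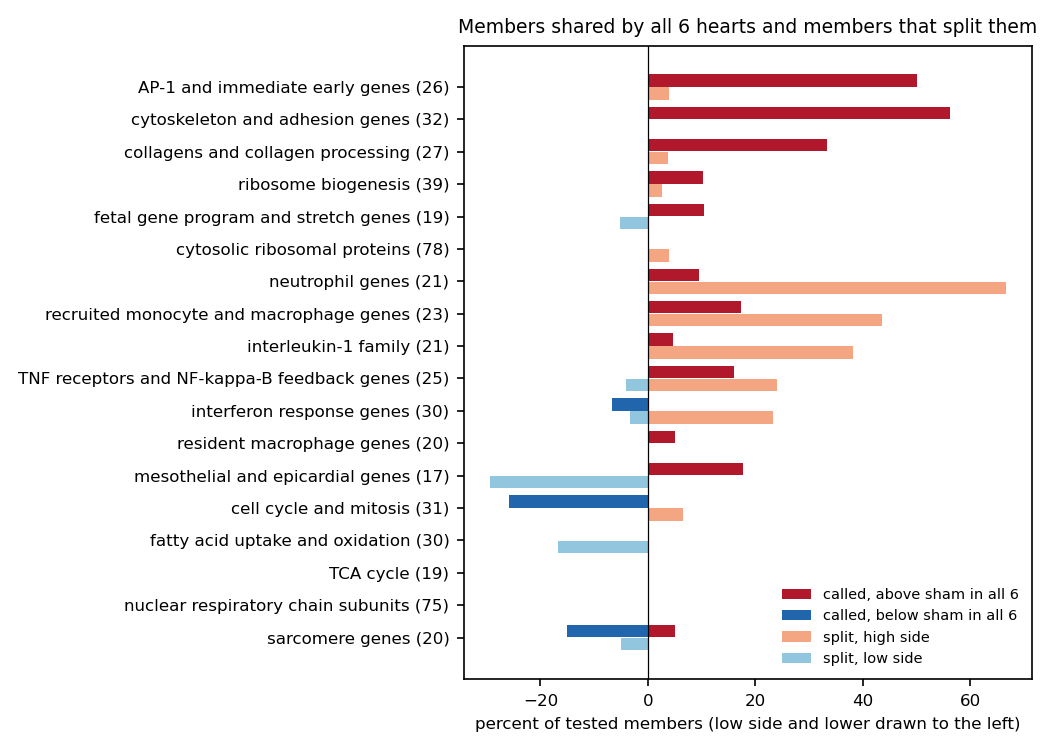
Percent of the tested members of each gene list that were called and beyond sham in all 6 hearts (dark bars) and that split the hearts (light bars), with lower and low-side members drawn to the left. Cytoskeleton genes had 18 of 32 members shared and none split, whereas neutrophil genes had 2 of 21 shared and 14 split.

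The machinery of protein synthesis showed GXNI 1 apart once more. Of 39 ribosome biogenesis genes, 9 (23.1%) were called higher. In the 5 hearts other than GXNI 1, 30 to 38 were above every sham heart, where 31.8% to 41.7% of all genes were. GXNI 1 had 10 above and 14 below, against 30.3% and 31.6% of all genes. Nop58, a core protein of the particles that methylate ribosomal RNA, was at 16.8, 14.9 and 16.3 CPM in sham, 20.2 in GXNI 1, 22.7 in MIRI 2 and 40.8 to 83.4 in the other 4 hearts, a change of 1.64 ± 0.46, and small nucleolar RNA genes lie inside it. The 9 calls were lost when any single sham heart, MIRI 1 or MIRI 3 was left out, and were 31 without GXNI 1. Of 78 cytosolic ribosomal protein genes, 76 were above sham in MIRI 3 and 74 in GXNI 3, where 41.7% and 41.1% of all genes were. In GXNI 1, 68 were below sham, where 31.6% of all genes were. The median distance from the sham mean was 0.55 and 0.40 log2 units in MIRI 3 and GXNI 3 and -0.21 in GXNI 1, and many of these genes have processed pseudogenes that can share reads. Rpl13, for instance, was at 338 to 366 CPM in sham, 314 in GXNI 1 and 401 to 584 in the other 5 hearts. Proteasome subunits and endothelial genes gave no call in edgeR's quasi-likelihood test, with 7 of 35 and 7 of 25 at an unadjusted p under 0.05 and 1 and 3 called by DESeq2, and 1 of each passed on the limma voom p. Their median log2 differences were 0.06 and 0.22.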

How the data were processed

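Heart tissue RNA of 9 mice (3 per group, separate animals) was sequenced, and the authors deposited 1 table of raw counts per gene, made, per the submitters' processing notes in the labels, with HISAT2, featureCounts of the Subread package and the mm10 build. Versions and the strand setting are not given in the sources used here. Of 54532 gene identifiers, 54409 matched GENCODE M21, whose coordinates and symbols were used.

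Counts were fitted in edgeR 4.0.16 (R 4.3.3) with TMM scaling, the filter on low counts by arm, and the quasi-likelihood F test of the 6 I/R hearts against 3 sham hearts, with calls at a 1.5-fold difference and p at or under 0.01. The labels name DESeq2, which was run as an alternative (1.42.0), as was limma voom (3.58.1). CPM values and log2 CPM (prior count 0.5) used the TMM factors. Tested on simulated data of 14926 genes with the spread of all 9 hearts, the edgeR fit recovered 187 of 200 genes given a change of 2 log2 units and called 0.781% of the others. The simulation gave sham and I/R hearts the same spread and drew each library independently. It therefore does not cover an arm as uneven as the 6 I/R hearts. Alternatives were RLE scaling, no filter, mitochondrial genes left out, 3 groups in the fit, an adjusted p, a replicate block and each library left out.

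The numbers of the labels did not pair the hearts: deviations of same-numbered hearts correlated at -0.513 to 0.765 over 9 pairs, and 5 were above 0.1. Named genes were the 10 per direction with the widest gap to sham, the 5 called members of each of 57 lists with the smallest p, the 3 members of each list and the 8 genes per direction that split the hearts most widely, genes the study names and markers, and not all are printed. Members and lists were chosen with earlier results of these data known, and some named genes (such as Jun, Gdf15, Nmrk2, Sik1, Acta1, Col3a1, Cd163, Cs, Krt8 and Lcn2) after their values were seen. Limits from counts of 3 cover counting error only. Genes of the lists are described by counts and medians with no test of the list. Some items are not reported here.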

Additional observations from a re-analysis of the deposited data

Results flagged for a closer look

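In 11 of 339 named genes examined (3.24%), 1 of the 6 hearts stood apart, with its gap to the nearest heart divided by the range over the 6 above Dixon's critical value. Chance alone gives about 1 in 20 such groups, and over all 15207 genes tested the share was 3.6%. GXNI 1 was the lowest heart in 8 of the 11. Among cytoskeletal and stretch genes the ratio was 0.759 for Acta1, 0.732 for Fhl1, 0.651 for Synpo2l, 0.707 for Pdlim5 and 0.661 for Tubb2b. GXNI 1 was also lowest, with a ratio of 0.73, for Cxcr6, a chemokine receptor, at 0.199 CPM against 5.58 to 18.4 in the other 5 hearts and 0.397 to 1.23 in sham. It was lowest as well for Dusp7, a phosphatase of ERK (0.807), at 22.2 CPM against 35.3 to 39.5 in the other hearts and 59.5 to 68.7 in sham, and for the cytotoxic granule gene Nkg7 (0.665), at a few reads. GXNI 3 was lowest for Ahrr, the repressor of the aryl hydrocarbon receptor (0.752), where it was at 0.0580 CPM. MIRI 3 was highest for Loxl1 (0.752). MIRI 2 was lowest for Zbp1, a sensor of Z-form nucleic acids induced by interferon (0.683), at 0.823 CPM against 13.9 to 51.0 in the other hearts and 4.89 to 17.8 in sham. Over all genes tested GXNI 1 was the heart apart in 200 and MIRI 2 in 117, against 86 for MIRI 3, 77 for GXNI 3, 39 for GXNI 2 and 28 for MIRI 1.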

How the results depend on the processing

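No named gene turned its direction under any alternative. The count called higher (840) was 1519 with DESeq2, and the count called lower (434) was 677 with DESeq2, 656 with no filter on low counts and 1084 with limma voom, where 738 were below sham in all 6. At an adjusted p of 0.05 edgeR's quasi-likelihood test called 4 and 5 genes, all of them beyond sham in all 6 hearts, and DESeq2 gave 2207 genes at that level before the fold threshold. RLE scaling, leaving out mitochondrial genes and a fit of 3 groups kept each count at the unadjusted threshold within 1.5 times, but in the fit of 3 groups the 9 genes at an adjusted p of 0.05 became 0. With each library left out in turn, calls ranged from 254 to 1466 (higher) and 209 to 858 (lower), and those beyond sham in every heart from 248 to 1229 and 206 to 825, with the lowest values without sham 2 and the highest without MIRI 2 or GXNI 1. Without both MIRI 2 and GXNI 1, a choice made after seeing the data, they were 2417, 1917, 2358 and 1890. Genes that split the hearts ranged from 98 to 540 (high side) and 112 to 419 (low side) with a library left out, and were 298 and 151 at a distance of 1.5 log2 units. With the replicate number as a block, a pairing that the correlations did not bear out, 901 genes were called higher, 600 lower, and 626 and 503 of them beyond sham in all 6 hearts. Of 186 named called genes, 143 kept their call under every alternative other than the adjusted p and left-out libraries. With 3 sham hearts, small changes were not detectable, and the cause of the changes in counts was not tested.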

Other observations

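Several other gene groups were read in these hearts. Of 24 cell death and BCL2 family genes, 8 split the hearts on the high side, as 3.58% of all genes did. In edgeR's quasi-likelihood test 1 was called higher (4.17%, against 5.52% of all genes). Without MIRI 2 and GXNI 1, 14 were called higher, when 2417 of 14994 genes were. Of 23 vascular growth factor and receptor genes none was called in edgeR's quasi-likelihood test, 8 had an unadjusted p under 0.05, DESeq2 called 5, and 2 passed on the limma voom p. On the high side 7 split the hearts, as 3.58% of all genes did. Of 19 CC and 17 CXC chemokine and receptor genes tested, 4 of each were called higher (21.1% and 23.5%, against 5.52% of all genes). None of the 4 CXC calls held when any single sham heart was left out. Ccl6, Ccl9, Ccl24 and Ccl17 were above sham in all 6 hearts, as was Cxcl3 of the CXC genes. In sham 1 to 3, Ccl17 had only 0, 2 and 2 counts and Cxcl3 2, 0 and 4. Cx3cr1 was called lower. Ccl24, an eosinophil chemokine also made by resident macrophages, was at 0.698, 1.09 and 0.535 CPM in sham and between 2.19 (GXNI 1) and 6.67 (MIRI 3) after I/R. Krt18, a keratin of simple epithelia that injured cardiomyocytes can express, was at 0.913, 0.694 and 0.535 CPM in sham and between 1.86 (MIRI 1) and 5.07 (GXNI 1). Its usual partner Krt8 was at 1.44 to 2.95 CPM in sham and at 15.9 in GXNI 1, and below sham in 4 of the other hearts. Of 13 transcripts encoded by mitochondrial DNA none was called by edgeR's quasi-likelihood test or DESeq2, and 2 were lower at an unadjusted p under 0.05 in the edgeR test. Below every sham heart lay 9 to 12 of them in each I/R heart but MIRI 2, where 3 did. Of all genes, 33.6% were below sham in MIRI 2 and 31.6% to 43% in the other hearts.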
